A study of Mus musculus with 2 samples.

Results

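The genes followed belong to lytic cell death, in which the plasma membrane breaks open: Nlrp3, Pycard, Casp1, Casp4, Casp8, Gsdmd, Ripk1, Ripk3 and Mlkl. They were taken from a fixed list of symbols, and all 9 were found among the 31053 genes of the count matrix. Their unique molecular identifiers (UMIs, 1 per captured RNA molecule) were read in every cell that had 200 genes or more and no more than 20% of its UMIs from mitochondrial genes.

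The study set cells of mice with experimental autoimmune encephalomyelitis (EAE, an induced model of neuroinflammation) against those of healthy mice. The EAE cells were pooled from 5 mice and the healthy cells from another 5, and all were wild-type C57BL/6J females of 10 weeks. The labels state neither how EAE was induced nor at which stage the tissue was taken. Cells came from the cribriform plate, the sieve of bone over the nose, taken with olfactory bulb and nasal mucosa, and were sorted to be Podoplanin+ CD31+ and CD45- so as to hold lymphatic endothelium. The matrix marks cells with suffix 1 or 2, here library 1 and library 2, and nothing in the labels or the file ties a suffix to EAE or healthy. No comparison of EAE with healthy mice is therefore made. Ratios are those of library 2 over library 1, each a single library of pooled animals, so no difference has a replicate check and none was tested.

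An inflammasome forms when a sensor such as NLRP3 meets a danger signal and gathers the adaptor ASC, the product of Pycard, which in turn activates the protease encoded by Casp1. That protease cuts gasdermin D, whose fragments form pores in the membrane, and matures the cytokines made by Il1b and Il18; mouse Casp4 encodes a protease that cuts gasdermin D after binding bacterial lipopolysaccharide in the cytosol. Necroptosis is a separate route in which the kinases RIPK1 and RIPK3 lead to phosphorylation of MLKL, which breaks the membrane, and the protease of Casp8 holds this route back. Microglia, the resident macrophages of the brain, are known to use the NLRP3 inflammasome.

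Library 2 held 1922 kept cells with 20282053 UMIs and library 1 held 3406 kept cells with 25766058 UMIs. The median cell had 9782.5 UMIs and 2992 genes in library 2, against 7334 UMIs and 2534.5 genes in library 1, and its mitochondrial share was 3.74% and 1.54%. The 7 lymphatic endothelial markers summed to 6.90 and 28.3 CPM (UMIs scaled to a common total in each library) in libraries 2 and 1, with Mmrn1 and Reln at 0 in library 2, whereas the 8 microglia markers summed to 9303 and 17623 CPM. The levels described here are thus mostly those of microglia-like cells, which made up 89.3% of library 2 and 92.7% of library 1, and not those of the labelled lymphatic endothelium. Neutrophil markers, of cells rich in inflammasome genes, summed to 0.197 and 0.155 CPM, and monocyte markers to 75.3 and 11.8 CPM. Of all barcode sequences, 8 occurred in both libraries, 7 of them among the kept cells of both.

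Of 13891 genes with at least 20 UMIs, 2.76% were at least 2-fold higher in library 2 (a log2 ratio of 1 or more, with 10 CPM added to both levels) and 1.92% were at least 2-fold lower. Among the 9 genes, none passed that size upward and 1, Nlrp3, passed it downward. Their median log2 ratio was 0.10, beside 0.02 for all genes. The single ratios ran between -1.63 for Nlrp3 and 0.97 for Pycard, so the median says little of any 1 gene.

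Sequences are shown for Nlrp3 and Mlkl, which had the largest folds in the direction of library 1 and of library 2. Each is the 250 bases before a start site in RefSeq's annotation of GRCm38.p6, read 5′ to 3′ on the gene's strand, and capitals mark a match to the kappaB core GGANNTTCC on either strand. RefSeq gives Nlrp3 a pair of starts, both printed, on the plus strand at chr11:59541319-59541568 and chr11:59542436-59542685, and Mlkl 1 start on the minus strand at chr8:111338206-111338455.
Nlrp3, first start: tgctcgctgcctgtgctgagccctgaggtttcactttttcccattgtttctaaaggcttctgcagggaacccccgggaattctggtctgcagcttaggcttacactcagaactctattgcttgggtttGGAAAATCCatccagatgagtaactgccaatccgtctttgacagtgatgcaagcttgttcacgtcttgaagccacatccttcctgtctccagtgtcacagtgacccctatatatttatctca
Nlrp3, second start: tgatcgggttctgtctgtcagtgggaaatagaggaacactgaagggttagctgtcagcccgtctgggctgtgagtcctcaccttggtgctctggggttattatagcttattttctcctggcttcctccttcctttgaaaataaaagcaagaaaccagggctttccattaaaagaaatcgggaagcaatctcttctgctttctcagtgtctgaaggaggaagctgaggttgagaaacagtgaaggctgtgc
Mlkl: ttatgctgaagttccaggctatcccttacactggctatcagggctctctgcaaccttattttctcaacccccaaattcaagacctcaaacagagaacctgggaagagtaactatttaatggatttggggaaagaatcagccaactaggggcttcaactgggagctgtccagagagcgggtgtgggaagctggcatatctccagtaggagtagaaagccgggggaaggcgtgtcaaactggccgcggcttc
The match in the first Nlrp3 window, GGAAAATCC, lay 122 to 114 bases before the start, and 3.59% of 32851 promoters of the same length held a kappaB core. Of the 9 genes, 8 had a promoter in the table, and all were also searched for the interferon response core GAAANNGAA, present in 7.13% of promoters, and for the GAS core TTCNNNGAA, present in 7.02%. The only other match among them was a GAS core, found at 2 places before the second start of Ripk1. Only these exact letters were searched, so a promoter without a match can still hold other forms of such sites. These are letters in a window and say nothing of factor binding.

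Nlrp3 (ENSMUSG00000032691), the inflammasome sensor, gave 1472 UMIs in library 2 and 6310 in library 1. That is 72.6 CPM in library 2 (95% interval 68.9 to 76.4) against 245 CPM in library 1 (239 to 251), 3.37-fold lower in library 2, with a log2 ratio of -1.63. With each cell thinned to 2000 UMIs, 11.6% of library 2 cells held an Nlrp3 UMI, against 34.9% of library 1 cells. Unthinned, the shares were 44.5% and 67.2%. The sensor was thus lower in library 2 by level and by share, although the median library 2 cell had more UMIs. Poisson intervals on CPM and exact binomial ones on shares cover counting error only.

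Pycard (ENSMUSG00000030793), the adaptor, went the other way. It gave 553 CPM in library 2 (543 to 564) against 277 CPM in library 1 (271 to 283), about 2-fold higher, with a log2 ratio of 0.97. Its thinned shares were 65.7% and 42.4%, so that the adaptor was found in most library 2 cells even at equal depth. Sensor and adaptor therefore differed in opposite directions between the libraries.

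The caspases did not move as one. Casp1 (ENSMUSG00000025888), the protease recruited by the adaptor, gave 67.0 CPM in library 2 and 44.2 CPM in library 1, a log2 ratio of 0.51, with thinned shares of 12.4% and 8.99%. Casp4 (ENSMUSG00000033538), the lipopolysaccharide-binding protease, gave 102 CPM in library 2 and 164 CPM in library 1, a log2 ratio of -0.63, with thinned shares of 15.6% and 23.8%. The unthinned shares of Casp4, from cells with more UMIs in library 2, did not show this difference, at 52.8% and 53.7%. Casp8 (ENSMUSG00000026029), the brake on necroptosis, gave 102.4 CPM (98.0 to 106.9) in library 2 and 113 CPM (109 to 118) in library 1, a log2 ratio of -0.13. Its thinned shares were 17.6% and 20.6%, whereas the unthinned ones, 60.5% and 53.6%, had the opposite order. Casp1 and Casp4 are related neighbours on chromosome 9, and how the counting treated reads that fit both is not given in the sources used here.

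Gsdmd (ENSMUSG00000022575), the pore-forming substrate, gave 156 CPM in library 2 (151 to 162) and 102 CPM in library 1 (98.3 to 106.2). Its thinned shares were 26.6% and 19.1%, and its log2 ratio of 0.57 was close to that of Casp1. The intervals of the 2 libraries did not meet for Gsdmd or for Casp1, but neither gene reached a 2-fold difference.

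Both RIP kinases had like levels in the libraries. Ripk1 (ENSMUSG00000021408) gave 59.5 CPM in library 2 (56.2 to 62.9) and 54.7 CPM in library 1 (51.9 to 57.7), with 10.4% of thinned cells positive in each. Ripk3 (ENSMUSG00000022221) gave 8.04 CPM (6.85 to 9.37) in library 2 and 7.65 CPM (6.62 to 8.79) in library 1, from 163 and 197 UMIs. The intervals overlapped for each kinase, and the log2 ratios were 0.10 for Ripk1 and 0.03 for Ripk3. Such an overlap does not by itself show equal levels. Ripk1 overlaps Serpinb6a on the other strand, a gene with 296 and 402 UMIs, and whether the counting used strand is not given in the sources used here.

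Mlkl (ENSMUSG00000012519), the membrane-breaking effector, had 143 UMIs in library 2 and 9 in library 1. Its level was 7.05 CPM in library 2 (5.94 to 8.31) against 0.349 CPM in library 1 (0.160 to 0.663), a 20.2-fold difference without a pseudocount. The 10 CPM added to both levels reduced this to a log2 ratio of 0.72, short of the 2-fold size, and 1 CPM in its place gave 2.58. UMIs of Mlkl were found in 135 of 1922 cells in library 2 (7.02%) and in 9 of 3406 cells in library 1 (0.264%), with at most 3 and 1 UMIs in any cell. At 2000 UMIs a cell the shares were 1.37% (26 of 1895 cells) and 0.0307% (1 of 3259 cells).

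A share of cells with a UMI can come from free RNA, and olfactory-sensory-neuron-like cells were read for it, as cells that should lack microglial RNA. Whether these neurons make any of the 9 genes themselves was not tested. That cluster had 37 cells in library 2 and 7 in library 1, with median depths of 11227 and 13704 UMIs against 9782.5 and 7334 over all kept cells. Microglia markers summed to 40.2 and 135 CPM in them, against 9303 and 17623 CPM over all kept cells. Ripk1 was found in 4 of the 37 neuron-like cells of library 2 (10.8%), below its unthinned 41.0% there, and Pycard in 1 cell of each library. None of the other 7 genes had a UMI in a neuron-like cell. For library 2, 0 of 37 cells allows a share of up to 8.11% (3 cells of 37), which lies above the unthinned Mlkl and Ripk3 shares of 7.02% and 7.80%, so that a low background of these genes was not detectable with so few cells.

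**Figure D1:**
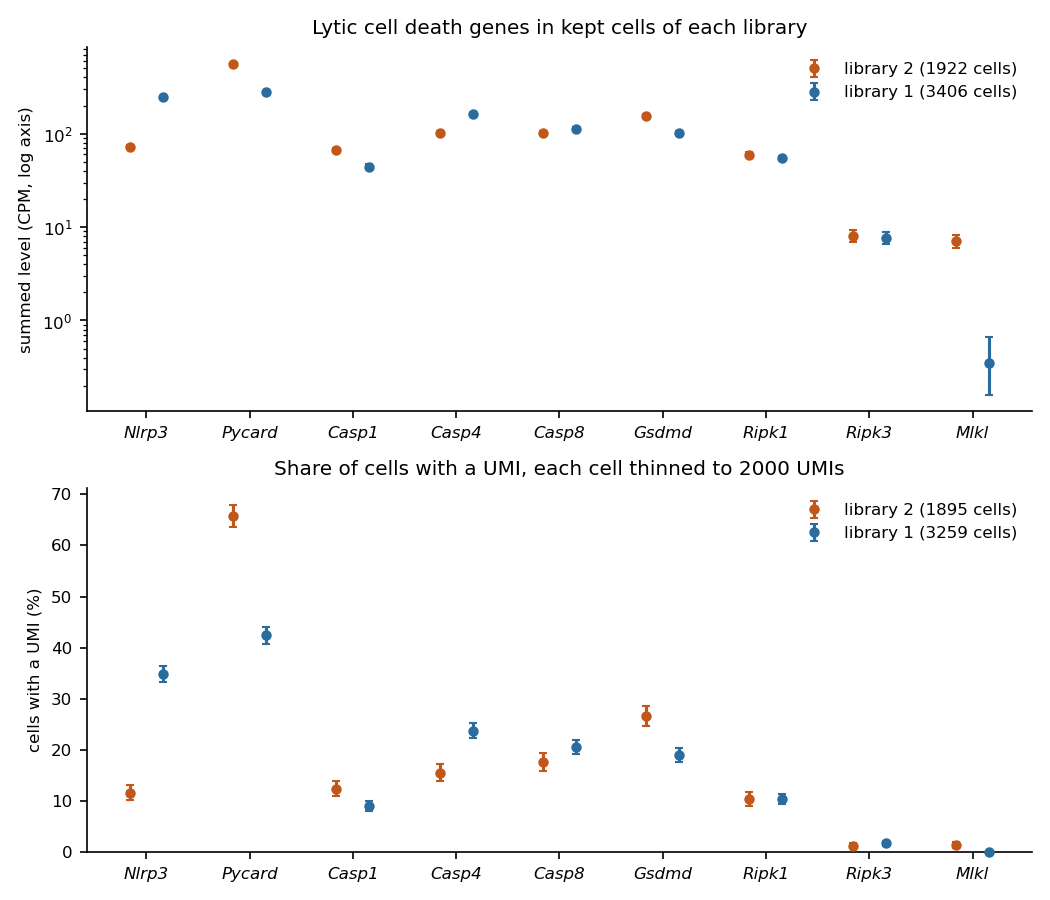
Levels of the 9 genes in kept cells of library 2 (orange, left of each pair) and library 1 (blue), as summed CPM on a log axis (top) and as the percent of cells with a UMI after thinning to 2000 UMIs (bottom); bars are 95% Poisson or exact binomial intervals. Nlrp3 sits at 72.6 and 245 CPM, Pycard at 553 and 277 CPM, and Mlkl at 7.05 and 0.349 CPM.

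Cells were clustered with these genes and the other pathway genes set aside, and a cluster took the name of the marker list that had at least 3 genes among its 50 leading genes by fold, or was called mixed where several lists did. Where no list did, it was called microglia-like if 5 or more of the 8 markers of microglia were at 100 CPM or above and no other list had more of its 10 leading genes. Different clusters held most microglia-like cells of the 2 libraries: clusters 9, 10, 14, 15 and 16 held 1714 of library 2 and 43 of library 1, of which 22 were in cluster 14, and clusters 1 to 5 held 2 of library 2 and 3114 of library 1. Levels by cluster are given where a library had at least 50 cells in it, which leaves each microglia-like cluster to 1 library. A cluster difference across libraries is therefore also a library difference, and levels are compared within a library.

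Nlrp3 varied most within library 1. It reached 372 CPM (358 to 387) in cluster 3, which was led by Gadd45b and Il1a, and 122 CPM (111 to 134) in cluster 1. Clusters 4, 5 and 2 lay between, at 236, 231 and 214 CPM, and their neighbouring intervals overlapped. Within library 2 it ran between 55.4 CPM in cluster 15, led by C4b and Apoe, and 93.0 CPM in cluster 10, led by H2-Aa and H2-Ab1. Every microglia-like cluster of library 1 thus lay above every one of library 2. A coarser clustering narrowed the log2 ratio between the highest and lowest of these clusters to 0.04, against 0.66, in library 2 and to 0.79, against 1.53, in library 1.

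Casp4 had the same highest and lowest clusters as Nlrp3 in library 1. It gave 247 CPM (235 to 259) in cluster 3 and 88.3 CPM (78.7 to 98.7) in cluster 1, with cluster 5 at 205 CPM apart from both neighbours in the order. In library 2 its highest cluster was 16, led by Cxcl9 and Ccl5, at 137 CPM, and its lowest was 15 at 83.9 CPM. Its cluster ranges in the 2 libraries overlapped, unlike those of Nlrp3.

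Pycard ran against both. In library 1 it was highest in cluster 1 at 364 CPM (344 to 384) and lowest in cluster 3 at 233 CPM (222 to 245). In library 2 it gave 635 CPM in cluster 9, led by Ifit3 and Rsad2, and 481 CPM in cluster 16. The low-depth mixed cluster 8 gave, in library 2, 811 CPM of Pycard but only 5 UMIs of Nlrp3, or 10.1 CPM. There its 104 cells had 8889 CPM of the fibroblast markers and 6265 CPM of the microglia markers. Osteoblast or chondrocyte markers summed to 1344 CPM and blood endothelial markers to 541 CPM, with 1 UMI of the red blood cell markers. The median cell had 3911 UMIs and 7.74% mitochondrial UMIs.

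Casp8 had the order of Pycard at both ends in library 1, with 139 CPM in cluster 1 and 95.8 CPM in cluster 3. Ripk1 was also lowest in cluster 3, at 42.2 CPM, and highest in cluster 2, at 67.7 CPM. Gsdmd hardly varied: its highest microglia-like cluster was 1.21-fold above its lowest in library 2 and 1.19-fold in library 1. The pore gene was thus nearly level where the sensor gene spread 3.05-fold in library 1.

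The necroptosis pair Ripk3 and Mlkl peaked in the same cluster of library 2, the dividing cells of cluster 14, led by Mki67, Birc5 and Top2a. Ripk3 gave 17.2 CPM there (10.6 to 26.3), against 8.28, 7.17, 5.36 and 10.4 CPM in clusters 9, 10, 15 and 16. Mlkl gave 19.6 CPM there (12.6 to 29.2), from 24 UMIs in 87 cells. It gave 10.5 CPM (8.14 to 13.4) in cluster 9, whose leading genes are interferon-induced, and 5.50, 4.68 and 2.86 CPM in clusters 16, 10 and 15. The interval of Ripk3 in cluster 14 lay above those of clusters 10 and 15, and that of Mlkl above those of clusters 10, 15 and 16, while both met that of cluster 9. Cells of cluster 14 were the deepest of the library, with a median of 14427 UMIs. Thinned to 2000 UMIs, 0 of its 85 cells had Ripk3, which allows up to 3.53%, and 1.18% had Mlkl (0.0298 to 6.38%), against 1.48% and 2.03% in cluster 9, so a peak in cluster 14 was not seen in shares at that depth. At 4000 UMIs, added after seeing the data, 8.54% of its 82 cells had Mlkl (3.50 to 16.8%), against 4.26% (2.72 to 6.32%) in cluster 9, and 3.66% had Ripk3 (0.761 to 10.3%), against 3.33% in cluster 9, with overlapping intervals. In library 1, Mlkl stayed at or below 0.368 CPM in clusters 1 to 5, which held 5 of its 9 UMIs among 3114 cells (together 0.212 CPM, 0.0690 to 0.496). The other 4 UMIs lay in the 43 microglia-like cells of library 1 that fell in clusters 9, 10, 14, 15 and 16, each UMI in its own cell, 3 of them in cluster 9 and 1 in cluster 14. Over these 5 clusters, pooled after seeing the data, Mlkl gave 7.40 CPM (6.21 to 8.74) in the 1714 library 2 cells and 6.89 CPM (1.88 to 17.6) in the 43 library 1 cells, with overlapping intervals. No barcode sequence of those 43 cells occurred in library 2. The pools differ in make-up, with 22 of the 43 library 1 cells in cluster 14 but only 87 of the 1714 library 2 cells. In cluster 9, Mlkl gave 16.8 CPM (3.46 to 49.0) in 12 library 1 cells, against 10.5 CPM in library 2. In cluster 14 it gave 3.28 CPM (0.0831 to 18.3) in library 1, against 19.6 CPM. With 4 UMIs, whether Mlkl matched its library 2 level in these library 1 cells cannot be told. Over all 5 of these clusters, Nlrp3 gave 76.7 CPM (72.8 to 80.8) in library 2 and 208 CPM (173 to 249) in library 1. Pycard gave 567 CPM (556 to 578) and 332 CPM (287 to 383), and the pooled intervals were apart for each gene. Clusters 9, 14 and 15 of library 1 gave 347, 246 and 297 CPM of Pycard, against 635, 609 and 596 CPM in library 2. Clusters 10 and 16 had the reverse order, at 562 CPM (389 to 785) and 780 CPM (462 to 1232), against 507 and 481 CPM. There the intervals overlapped, and library 1 had 6 cells and 1 cell. For Nlrp3, clusters 9, 14, 10 and 16 of library 1 gave 313, 187, 99.1 and 86.6 CPM, against 66.9, 74.5, 93.0 and 83.7 CPM. Cluster 15 had none in 2 cells. Ripk3 in clusters 1 to 5 of library 1 stayed between 6.02 and 8.37 CPM with intervals that all overlapped.

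**Figure D2:**
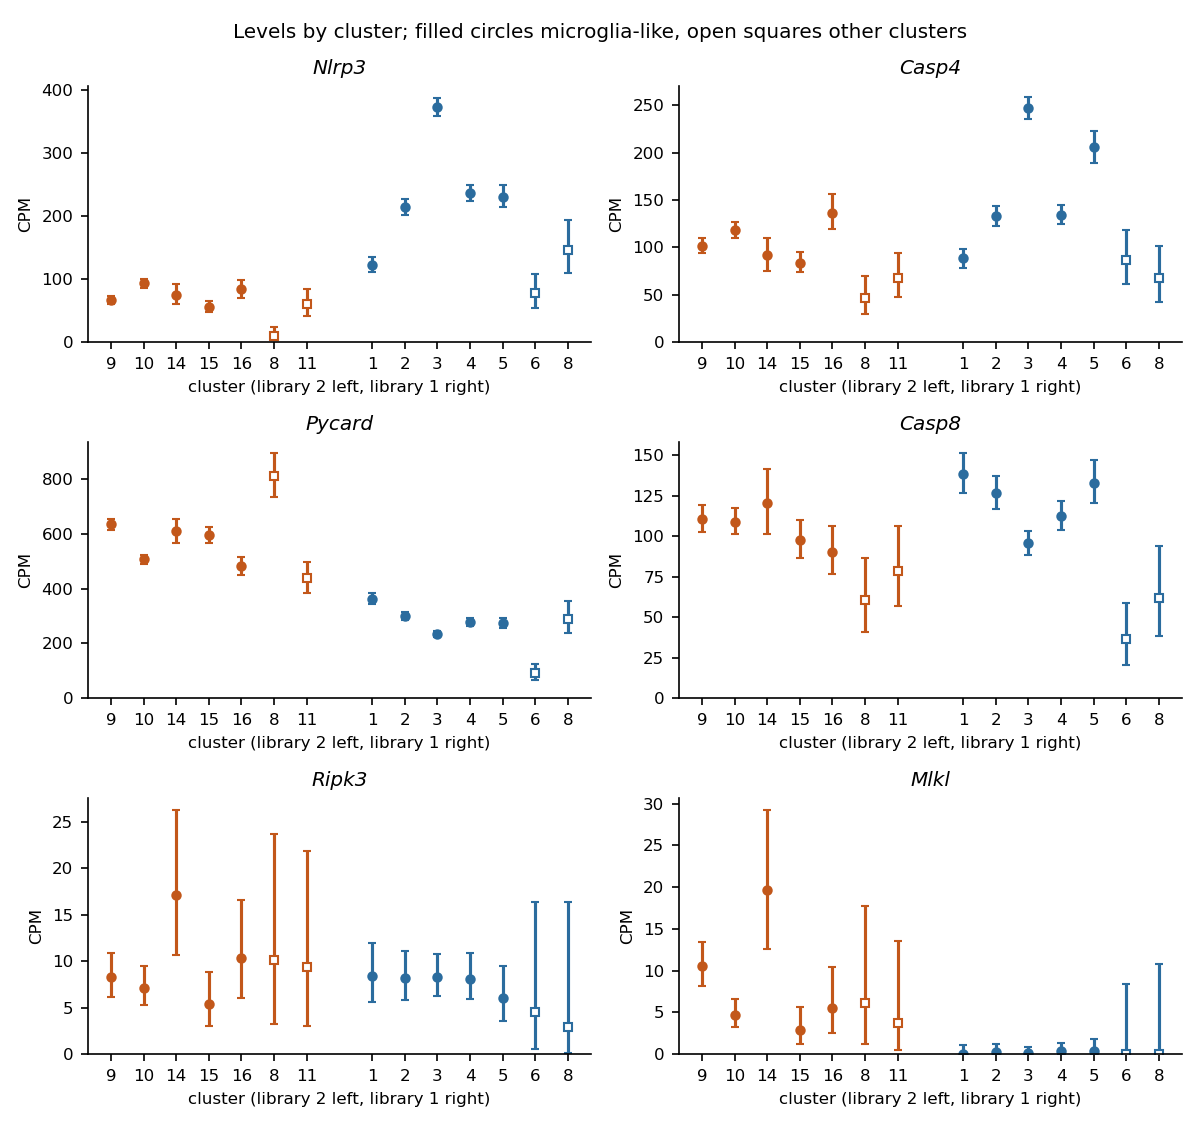
CPM of 6 of the genes in each cluster with at least 50 cells of a library, with library 2 (orange) left of library 1 (blue) and 95% Poisson intervals; filled circles are microglia-like clusters and open squares other clusters. Nlrp3 and Casp4 peak in cluster 3 of library 1, where Pycard is lowest among the microglia-like clusters, and Mlkl is highest in cluster 14 of library 2.

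Likeness between genes was described by Pearson's r of log2 levels over clusters of at least 50 cells, centred on each library's mean. There were 14 such units, 10 of them microglia-like, and they share libraries, depth and base composition, so r is given as a description with no p. Nlrp3 and Casp4 had r = 0.84 over 14 units and 0.89 over the 10 microglia-like ones. Nlrp3 and Pycard had r = 0.05 over 14 units and -0.90 over the 10, and Ripk3 and Mlkl had 0.66 and 0.85. Mlkl stayed at or below 0.368 CPM in every library 1 unit, and 10 CPM was added to levels. Any r with Mlkl thus rested almost only on the library 2 units. Casp8 and Gsdmd had 0.93 over 14 units but -0.02 over the 10, so their likeness rested on the clusters that were not microglia-like.

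Among all other genes with at least 200 UMIs, the pattern most like that of Nlrp3 over the 14 units was shown by Gna13 (r = 0.98) and Pmaip1 (0.97). For Casp4 it was Mul1 (0.97) and Herpud1 (0.94), for Pycard Aif1 and Npl, for Casp1 Cst3 and Fcgr3, and for Casp8 Tifab and Rab35. For Gsdmd it was Sh3bp1 and Tpm3, and for Ripk1 Tmem214 and Nrde2. The nearest to Ripk3 were Ruvbl2 and Fzr1, and the nearest to Mlkl were Dek (0.91) and Gemin6 (0.90). Over the 10 microglia-like units the likeness was much lower for Tpm3 with Gsdmd (0.40, against 0.98 over 14) and Cst3 with Casp1 (0.70, against 0.97). For Tmem214 and Nrde2 with Ripk1 it was 0.51 and 0.56, against 0.91 and 0.90. It was also lower for Aif1 and Npl with Pycard (0.75 and 0.77, against 0.97 and 0.96) and Fcgr3 with Casp1 (0.76, against 0.96). For Casp8 it fell to 0.82 with Tifab and 0.75 with Rab35, against 0.98 and 0.97, and for Gsdmd with Sh3bp1 to 0.85, against 0.99. It was 0.94 and 0.92 for the pair named for Nlrp3, 0.98 and 0.92 for that of Casp4 and 0.94 and 0.93 for that of Mlkl. These genes were picked as the highest r over the 14 units, which include the 10, so the latter are no separate check.

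Cells of each library were next ordered by the share of their UMIs from 3 lists that hold none of the genes described, and divided into 3 equal bands. The lists were immediate early and heat shock genes that tissue dissociation is known to induce, such as Fos and Hspa1a; NF-kappaB targets, such as Nfkbia; and interferon-induced genes, such as Isg15. These bands are ranges of a score, not cell types.

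Nlrp3 was higher with the dissociation score in both libraries. In library 2 it gave 43.5, 75.1 and 96.5 CPM in the low, middle and high band, and in library 1 it gave 188, 238 and 303 CPM. The median mitochondrial share was lower along the same bands, at 4.52, 3.61 and 3.33% in library 2 and 1.90, 1.52 and 1.26% in library 1. The low bands also held most of the cells that were not microglia-like, 174 in library 2 and 181 in library 1. Among microglia-like cells alone, an alternative chosen after seeing the data, the bands gave 55.0, 77.4 and 98.6 CPM in library 2 and 211, 239 and 305 CPM in library 1. The sensor's order along the score was thus the same without the other cells.

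Casp4 followed the same order, with 75.9, 98.9 and 129 CPM in library 2 and 138, 159 and 191 CPM in library 1. Gsdmd gave 126, 165 and 175 CPM in library 2 and 89.6, 109 and 106 CPM in library 1. Among microglia-like cells alone its rise was smaller, at 154, 159 and 179 CPM in library 2 and 97.2, 112 and 106 CPM in library 1. Pycard ran the opposite way in both libraries, with 573, 569 and 518 CPM in library 2 and 307, 282 and 245 CPM in library 1. Mlkl showed no order, at 8.26, 6.48 and 6.57 CPM in library 2 with overlapping intervals.

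The dissociation score itself differed between the libraries: its median in the middle band was 2.48% of UMIs in library 2 and 6.46% in library 1. The bands with the closest medians were the high band of library 2 and the low band of library 1, at 4.10% and 4.30% among microglia-like cells (ranges 3.31 to 13.6% and 0.391 to 5.53%). There Nlrp3 gave 98.6 CPM in library 2 (90.7 to 106.9) and 211 CPM in library 1 (201 to 222), while Pycard gave 519 CPM (501 to 538) and 326 CPM (313 to 339). Gsdmd gave 179 and 97.2 CPM, and Casp1 gave 76.3 and 55.3 CPM. Mlkl gave 6.75 CPM in library 2 (4.82 to 9.19) and 0.385 CPM in library 1 (0.0793 to 1.12). In these 2 bands the 5 genes differed in the direction seen over all cells. The bands are opposite ends of their libraries with unlike ranges, so their cells are not matched by score. Whether the score accounts for the library differences was not tested. Casp4 was also lower in library 2 there, at 135 CPM (126 to 144) against 147 CPM in library 1 (139 to 156), but with overlapping intervals.

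Along the NF-kappaB score, Nlrp3 gave 49.2, 76.2 and 88.4 CPM in library 2 and 166, 257 and 300.1 CPM in library 1. Casp4 gave 65.2, 111 and 123 CPM in library 2 but 133, 187 and 167 CPM in library 1, where the middle band was highest. Between low and high band Nlrp3 rose 1.80-fold in library 2 and 1.81-fold in library 1, and among microglia-like cells alone 1.45-fold and 1.61-fold. Casp4 rose 1.89-fold and 1.26-fold, and among microglia-like cells alone 1.51-fold and 1.15-fold. The low bands held 176 and 150 cells that were not microglia-like. Along the interferon score, Casp4 gave 82.0, 106 and 116 CPM in library 2 and 133, 159 and 194 CPM in library 1. Nlrp3 along that score went different ways, with 76.4, 75.7 and 65.9 CPM in library 2 and 205, 262 and 264 CPM in library 1. Mlkl, a gene known to be induced by interferon, gave 5.63, 6.73 and 8.69 CPM in library 2, with intervals that overlapped. Pycard gave 502, 566 and 589 CPM in library 2, against 276, 280 and 275 CPM in library 1, where it was level. Among microglia-like cells alone it was level in both, at 562, 559 and 580 CPM in library 2 and 290, 283 and 277 CPM in library 1; the low band of all library 2 cells held 124 cells that were not microglia-like.

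**Figure D3:**
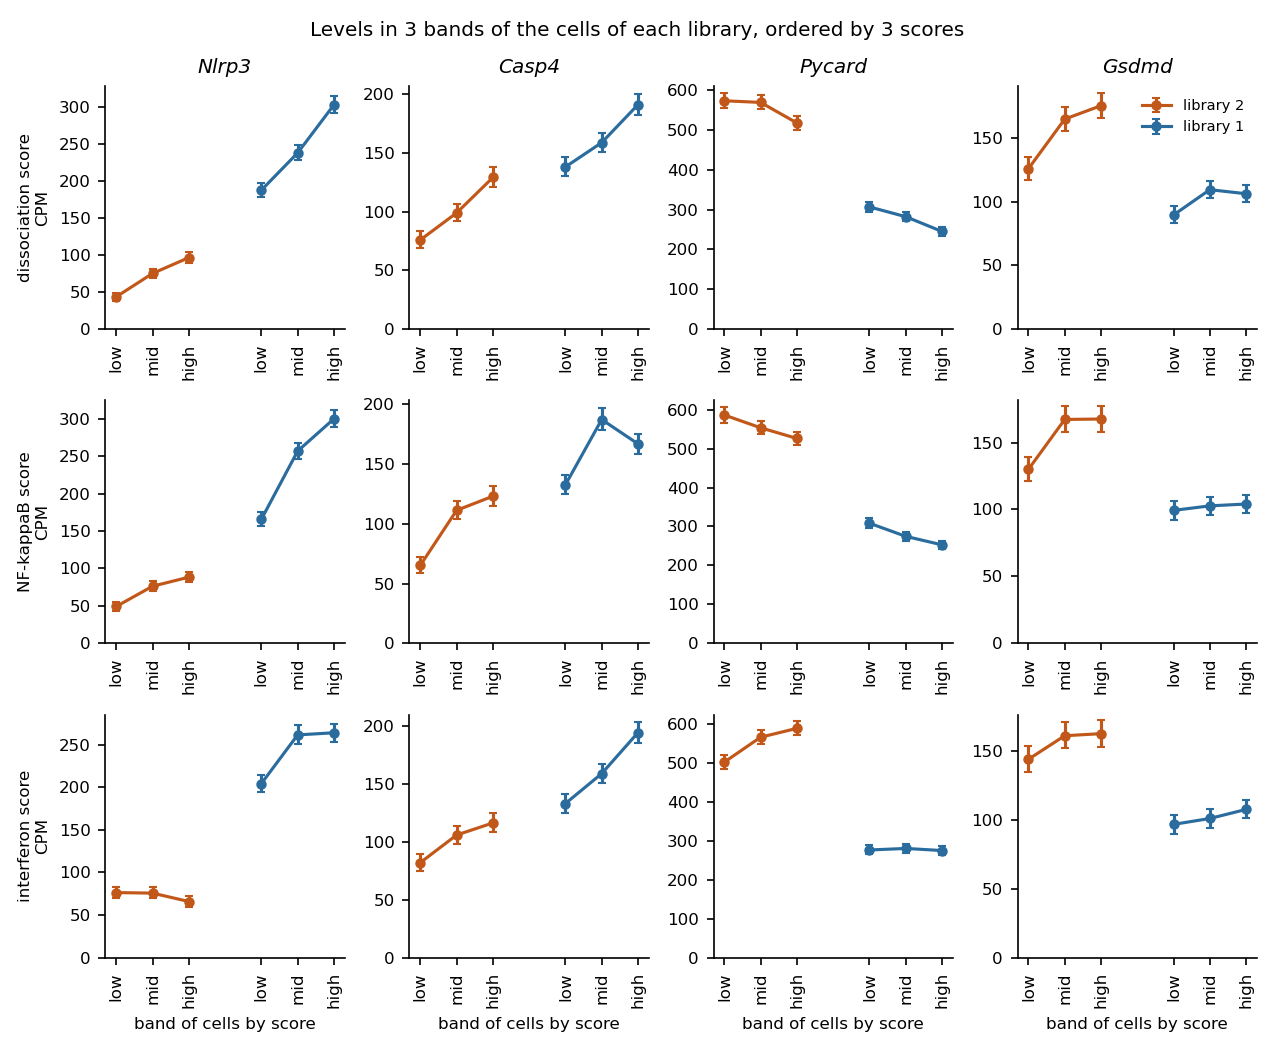
CPM of Nlrp3, Casp4, Pycard and Gsdmd in the low, middle and high band of cells by dissociation, NF-kappaB and interferon score, library 2 (orange) left of library 1 (blue) in each panel, with 95% Poisson intervals. Nlrp3 is highest in the high band of the dissociation score in both libraries, at 96.5 and 303 CPM, and Pycard lowest, at 518 and 245 CPM.

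At 2000 UMIs a cell, the median cell had UMIs of 2 of the 9 genes in each library, the most was 6, 18.8% of library 2 cells and 19.9% of library 1 cells had 3 or more, and 12.6% of library 2 cells and 14.5% of library 1 cells had none. Among cells of library 2 with an Nlrp3 UMI, 16.4% (11.8 to 22.02%) also had one of Il1b, against 8.53% (7.24 to 9.97%) of cells without. In library 1 the shares were 6.51% (5.15 to 8.11%) and 4.29% (3.46 to 5.24%), with intervals that just overlapped. Casp4 and Gsdmd leaned the same way in library 2: Gsdmd was found in 32.4% (27.1 to 38.1%) of cells with Casp4 and 25.5% (23.4 to 27.7%) of cells without, with intervals that overlapped. Nlrp3 and Pycard, which bind each other as proteins, were not found together more often, with Pycard in 61.2% of cells with Nlrp3 and 66.3% of cells without in library 2, and 41.2% and 43.1% in library 1. Ripk3 and Mlkl were never found in the same cell, but only 23 cells of library 2 and 57 of library 1 had Ripk3, which allows a share with both of up to 13.04% and 5.26% (3 cells of each).

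The other genes of the pathways were read from 5 lists and compared in the same way, with 2.76% of all genes past 2-fold upward and 1.92% downward. Of 18 other inflammasome sensors and priming genes, 14 had enough UMIs, with a median log2 ratio of 0.15; none was past 2-fold upward and 1 was past it downward. That was Txnip, which encodes a protein known to bind NLRP3, at 347 CPM in library 2 and 1011 CPM in library 1 (log2 ratio -1.52). Nek7, a kinase that NLRP3 needs, gave 97.6 and 127 CPM, and P2rx7, an ATP-gated channel upstream of it, gave 83.5 and 73.2 CPM. Naip2, a sensor of bacterial type III secretion, gave 63.6 and 34.3 CPM (log2 ratio 0.73). Apart from Txnip, no sensor or priming gene thus matched the size of the Nlrp3 difference.

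All 6 genes of inflammasome products and their brakes were measured, with a median log2 ratio of 0.45, 1 past 2-fold upward and 1 downward. Il18bp, which encodes the decoy that binds interleukin-18, gave 145 CPM in library 2 and 3.84 CPM in library 1, 37.8-fold higher (log2 ratio 3.49). Il1a, an alarmin released by dying cells, gave 345 and 871 CPM (log2 ratio -1.31). Il1b gave 99.4 and 63.4 CPM (log2 ratio 0.58), and Hmgb1, a chromatin protein released on lysis, gave 292 and 462 CPM (-0.65). Il1a was thus lower in library 2 as Nlrp3 was, and Il1b was not.

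Among 10 other gasdermin, membrane rupture and repair genes, 8 were measured, with a median of -0.09, 1 past 2-fold upward and none downward. Casp12, a relative of Casp1 and Casp4, gave 18.0 CPM in library 2 and 1.86 CPM in library 1 (log2 ratio 1.24). Ninj1, whose product ruptures the membrane after gasdermin pores form, gave 102 and 155 CPM (-0.55). Chmp4b and Chmp3, of the complex that repairs such pores, gave 206 and 176 CPM and 49.4 and 58.4 CPM. Gsdma and Gsdmc had no UMI in either library, so Gsdmd and Gsdme, at 14.99 and 20.1 CPM, were the gasdermins detected among those listed.

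The 9 death receptor and adaptor genes had a median log2 ratio of 0.17, with 1 past 2-fold upward and none downward. Zbp1, a nucleic acid sensor that binds RIPK3 and starts necroptosis, gave 214 CPM in library 2 (208 to 221) and 6.91 CPM in library 1 (5.93 to 8.001), 31.0-fold higher (log2 ratio 3.73). The sensor and the effector of this route, Zbp1 and Mlkl, were thus both higher in library 2, while Ripk3 between them was level. Within library 2 cells, Mlkl was found in 1.71% (0.857 to 3.04%) of those with a Zbp1 UMI and 1.20% (0.672 to 1.97%) of those without, with overlapping intervals. Tnfrsf1a, the main receptor for TNF, gave 156 and 166 CPM, Cflar, which restrains Casp8, gave 205 and 156 CPM, and Tlr3 gave 46.3 and 28.7 CPM.

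The 16 brakes of RIPK signalling had a median of 0.06, with 1 past 2-fold upward and 1 downward. Tnfaip3, which encodes the ubiquitin editor A20 and is itself an NF-kappaB target, gave 180 CPM in library 2 and 582 CPM in library 1 (log2 ratio -1.64), close to the ratio of Nlrp3. Ikbke, a kinase related to TBK1, gave 19.5 and 3.22 CPM (1.16). Mapkapk2 gave 116 and 184 CPM and Tab2 gave 76.3 and 90.4 CPM, neither past 2-fold.

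**Figure D4:**
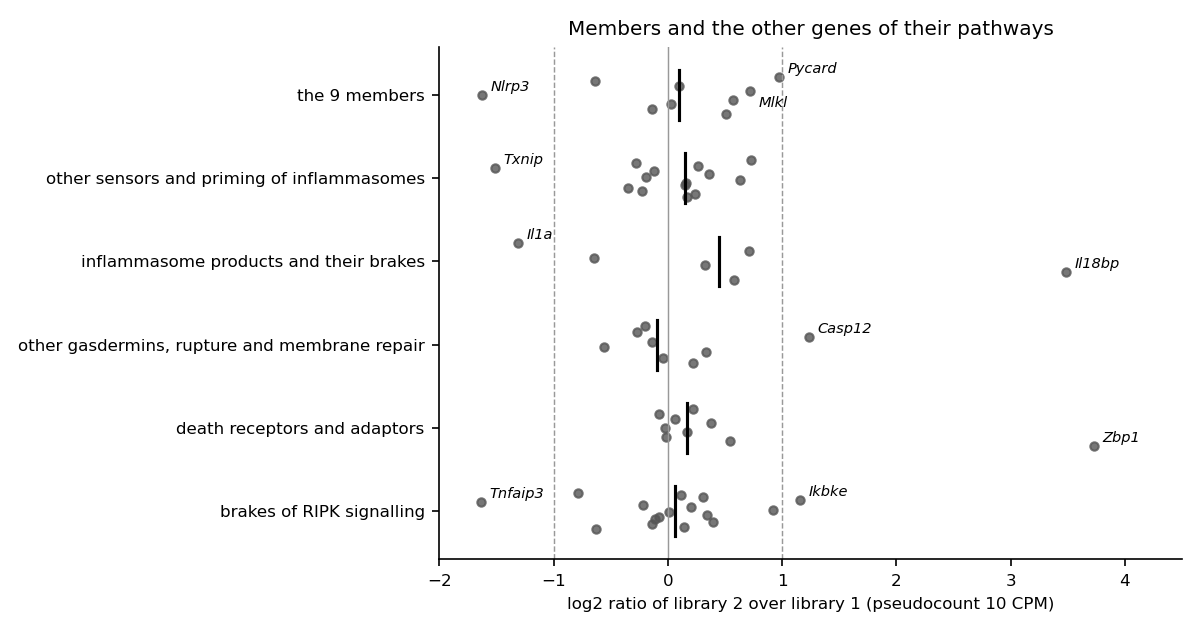
Log2 ratio of library 2 over library 1 (10 CPM added to both levels) for the 9 genes and for each measured gene of 5 pathway lists; points are genes, thick ticks list medians, dashed lines the 2-fold size on either side. Nlrp3, Txnip, Il1a and Tnfaip3 lie past the left line and Il18bp, Casp12, Zbp1 and Ikbke past the right one.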

How the data were processed

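Single-cell RNA of 2 sorted cell pools was deposited as 1 matrix of raw UMI counts per gene and barcode, made by the authors with Cell Ranger 3.1.0, per the file headers (matrix format version 2). bcl2fastq and UMI-tools are also named in the submitters' processing notes. The sources used here name no genome build, kit or strand setting. Barcodes carry suffix 1 or 2, which nothing ties to a group, so each suffix was treated as 1 library and no test was made. The 9 genes and the lists were chosen with earlier results of these data known.

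The cell filter asked for 200 genes or more and a mitochondrial share of 20% or less, and removed 512 of 2434 barcodes in library 2 and 432 of 3838 in library 1. UMIs were summed per library and scaled to CPM. Log2 ratios added 10 CPM, and the background was every gene reaching 20 UMIs over the pair of libraries. Thinning to 2000 UMIs left out 27 cells of library 2 and 147 of library 1. No doublet caller was run, and the authors' sort excluded doublets, per the labels. Clustering used Scanpy 1.11.5 (2000 variable genes, 30 components, 15 neighbours, Leiden resolution 1) without the described genes. Genes named in the text were the 9 genes, the 3 highest and 2 most different of each pathway list, and the 2 most like each of the 9; Gsdme, Gsdma and Gsdmc, the leading genes of clusters and examples of score lists fell outside that rule and were named after their values were seen. Promoters came from RefSeq (GRCm38.p6), and overlaps from GENCODE M21, in which 99.6% of the matrix's gene IDs were found. The ratio was tested on simulated data. Alternatives changed the pseudocount, cell filter, scaling (TMM with edgeR 4.0.16), cells, weighting, thinning and resolution. Other tools were Python 3.11.15, NumPy 2.4.6, SciPy 1.17.1 and R 4.3.3.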

Additional observations from a re-analysis of the deposited data

Results flagged for a closer look

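Signal of the 9 genes was also found in barcodes that the cell filter left out. The 512 left-out barcodes of library 2 held 144 UMIs of these genes and the 432 of library 1 held 36. All but 2 of the left-out barcodes of library 2 and all but 3 of library 1 exceeded 20% mitochondrial UMIs, with medians of 51.3% and 63.9%. Pycard gave 83.8 CPM (66.7 to 103.9) in the left-out barcodes of library 2 and 13.9 CPM (5.59 to 28.7) in those of library 1. Nlrp3 gave 6.06 CPM (2.22 to 13.2) and 13.9 CPM (5.59 to 28.7). Mlkl had 1 UMI in library 2 and none in library 1, where a count of 0, read as at most 3 UMIs, allows up to 5.96 CPM. Pycard and Nlrp3 thus lay below their levels in kept cells of the same library. CPM here counts mitochondrial UMIs in the total, and their larger share in left-out barcodes lowers the CPM of all other genes.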

How the results depend on the processing

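No paired analysis was possible because each side is 1 library and no test was made; for the same reason no replicate could be left out. Log2 ratios of the 9 genes were recomputed under 9 alternatives of filter, scaling, cells and weighting, and under 2 other pseudocounts. The ratio of Nlrp3 ran from -1.69 to -1.53 (-1.75 with no pseudocount) and that of Pycard from 0.91 to 1.10. Ripk3 alone changed sign, to -0.05 at the lowest, without the 5% of cells with the most UMIs and as a mean over cells. The count of the 9 genes past 2-fold upward became 1 in place of 0 with 1 CPM or no pseudocount, by Mlkl (2.58 and 4.34), and 1 with mitochondrial, ribosomal protein and haemoglobin genes left out of the totals, by Pycard (1.10). With 1 CPM the upward count also became 1 for sensors and priming genes (Nlrp1b), 2 for products and their brakes (Il1rn and Il18bp) and 2 for brakes of RIPK signalling (Sharpin and Ikbke), while the share of all genes past 2-fold became 8.70% upward and 5.17% downward. Scaling moved the median of all genes by at most 0.0512. Without thinning, the difference in the share of cells with a UMI, library 2 minus library 1, changed sign for Casp8 (6.85 in place of -2.93 percentage points), Ripk1 (8.997 in place of -0.0062) and Ripk3 (2.37 in place of -0.54). Of the recomputed values, 85 levels, 30 shares and 14 paired detections stayed within a limit set by their counting intervals, and 14, 15 and 8 did not. Cluster ranges and bands of a score were judged by a fixed cut-off in log2 ratio, not by counting error. Of these, 16 cluster ranges and 105 values in bands moved by less than it, and 2 and 3 by more. The depth limits Mlkl in library 1 (9 UMIs), Ripk3, and all pairs.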
